A study of Mus musculus with 16 samples.

Results

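Peg3, Mest, Peg10, Sgce, Snrpn, Ndn, Plagl1, Impact, Nnat and Zdbf2 are mouse genes expressed from the paternal copy, whose imprints lie outside the Dlk1 and Igf2 domains. They were taken as every non-control probe of the array whose RefSeq transcript belongs to 1 of these 10 genes. That gave 22 of the 55681 probes, and 10 of the 21154 genes that a probe named. A probe was tested if 1 or more groups had it well above background on all their arrays, which held for 20 of the 22 probes and left each of the 10 genes with at least 1 tested probe. The rule itself uses no measured value, but the 10 genes were picked with earlier results of these data known.

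In genomic imprinting 1 parental copy of a gene carries DNA methylation laid down in the germ line, and the other copy is expressed. For most of these genes the mark is set in the oocyte over a CpG-rich region at or near the promoter, so the maternal copy is silent. In the embryo and in embryonic stem cells the mark is copied by Dnmt1, and it is protected by the zinc-finger protein Zfp57, which binds a methylated hexamer and recruits Trim28 and Setdb1. A microarray measures the RNA of both copies together, so allelic origin was not measured here.

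Total RNA from mouse embryonic stem (mES) cells was hybridised to 16 one-colour arrays in 6 groups, formed by 3 lines in 2 media. J1 is a wild-type male line. TKO cells, derived from J1, lack Dnmt1, Dnmt3a and Dnmt3b. The third line, written 3B3-3l in the labels and 3B3l here, was also made from J1, lacks Dnmt3a and Dnmt3b, and carries constitutively expressed Dnmt3b and Dnmt3l from outside. Serum medium held LIF at 500 U/ml. The 2i medium, used for 2 weeks, held the MEK inhibitor PD0325901 at 1 µM, the GSK3 inhibitor CHIR99021 at 3 µM and LIF at 1000 U/ml. There were 4 arrays of J1-serum, 3 of J1-2i, 2 of TKO-serum, 3 of TKO-2i, 2 of 3B3l-serum and 2 of 3B3l-2i. Nothing in the sources used here says whether arrays of a group came from separate cultures, so the p-values measure only the spread between these samples, which may be technical. J1 in serum was grown on SNLP feeder cells and every other culture was feeder-free, so the feeder layer and the J1-serum group cannot be told apart.

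The share of spots well above background ran from 39.7% to 49.0% over the arrays, and the 75th percentile of intensity ran from 1018.8 to 1797.2. The arrays lay on 3 slides: all 4 of 3B3l shared a slide with J1-serum replicate 1 and with no other array, so 3B3l was set against J1 in 2i wholly across slides. Dnmt1 lay between -1.70 and -1.42 on the 5 TKO arrays and between 1.61 and 2.45 elsewhere, and Dnmt3a was well above background only on the 7 J1 arrays. Dnmt3b lay between 5.44 and 6.01 on the 3B3l arrays and at most at 3.08 elsewhere, and its probe was still well above background on the 5 TKO arrays, between -0.70 and -0.25. Dnmt3l was 5.80 to 5.89 in 3B3l-serum, 5.51 to 5.57 in TKO-serum and 4.43 to 4.98 in J1-serum, and in 2i it was 4.29 to 4.48 in 3B3l, 2.75 to 3.06 in TKO and 0.69 to 0.80 in J1. Whether these probes lie within the deleted parts was not examined. All 10 pluripotency markers examined were well above background on all 16 arrays.

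Markers of other cell types differed between groups. The summed linear level of 10 primitive endoderm markers was 55.6 to 71.4 on the J1-serum arrays and at most 12.3 on the arrays of every other group. All 10 markers were lower in J1-2i, TKO-serum and 3B3l-serum than in J1-serum. The summed level of 14 tested fibroblast markers of 20 was 79.3 to 95 in J1-serum and 32.6 to 71.5 elsewhere. In TKO-serum and 3B3l-serum 11 of the 14 were well above background on all arrays, while Dcn and Pdgfrb were so on none; against J1-serum 11 were lower in TKO-serum, and 7 were lower and 1 higher in 3B3l-serum. The summed level of 8 tested trophoblast markers of 10 was 11.6 to 13.7 in 3B3l-serum, 7.95 to 8.96 in TKO-serum, 5.41 to 6.3 in J1-serum and at most 8.03 in the 2i groups, and in 3B3l-serum each of the 8 was well above background on 1 or more arrays. That of 8 tested neural markers of 10 was 10.3 to 11.5 in TKO-serum, 9.74 to 9.94 in 3B3l-serum, 6.23 to 7.8 in J1-serum and at most 7.59 in the 2i groups. The part of any of these cells in the differences given here was not tested, and in bulk RNA fewer cells of a type cannot be told apart from less RNA per cell.

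Some of the promoters and probes behind these results are shown first. RefSeq (GRCm38.p6) gave 13 promoter windows for 7 of the 10 genes, each the 250 bases before a transcript start; Peg10, Sgce and Impact had none. The windows below are of Mest, Peg3 and Snrpn, which were higher in TKO and 3B3l cells than in J1 cells in serum, and of Plagl1, which was the gene that rose in 2i. Each is printed 5′ to 3′ on the strand of its gene, in lower case with every CpG in capitals.
Mest, chr6:30737800-30738049, plus strand: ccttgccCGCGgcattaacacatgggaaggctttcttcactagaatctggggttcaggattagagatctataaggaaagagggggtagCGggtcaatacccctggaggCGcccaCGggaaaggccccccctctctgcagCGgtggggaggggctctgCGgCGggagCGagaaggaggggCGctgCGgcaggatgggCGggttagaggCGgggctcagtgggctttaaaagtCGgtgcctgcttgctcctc
Peg3, chr7:6730420-6730669, minus strand: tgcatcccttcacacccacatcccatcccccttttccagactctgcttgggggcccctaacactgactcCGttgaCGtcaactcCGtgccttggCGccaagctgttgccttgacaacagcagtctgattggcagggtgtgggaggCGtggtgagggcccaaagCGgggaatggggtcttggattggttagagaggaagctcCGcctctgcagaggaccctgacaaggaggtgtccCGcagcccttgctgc
Snrpn, chr7:60005200-60005449, minus strand: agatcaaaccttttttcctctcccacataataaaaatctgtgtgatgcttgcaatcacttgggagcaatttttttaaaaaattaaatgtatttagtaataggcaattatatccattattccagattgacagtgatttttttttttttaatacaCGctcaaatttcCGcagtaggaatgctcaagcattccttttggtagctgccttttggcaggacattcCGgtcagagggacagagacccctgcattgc
Plagl1, chr10:13090582-13090831, plus strand: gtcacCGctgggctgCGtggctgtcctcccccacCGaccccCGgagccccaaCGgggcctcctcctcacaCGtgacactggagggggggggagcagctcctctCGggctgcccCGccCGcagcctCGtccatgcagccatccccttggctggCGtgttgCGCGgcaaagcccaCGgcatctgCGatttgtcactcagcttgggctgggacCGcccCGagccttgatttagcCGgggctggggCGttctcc
The median window of all 32851 in the RefSeq table held 6 CpGs. The Plagl1 window held 19 CpGs, a count that 19.7% of all windows reached. The Mest window, 1 of 3 given for this gene, held 14, which 29.4% reached, and the Peg3 window held 8, which 43.0% reached. The Snrpn window, 1 of 4 given for this gene and the nearest to its coding exons, held 3, which 71.0% reached. The Zfp57 hexamer TGCCGC, counted on both strands with overlaps allowed, occurred 2 times in the Mest window and 1 time in the Plagl1 window. It did not occur in the Peg3 and Snrpn windows shown or in the Mest window that starts farther upstream. In all, 4 of the 13 windows of these genes held it, 2 of them overlapping windows of Mest, against 8.7% of all windows. These counts describe 250 bases each and not the imprinted region as a whole.

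The sequences of 3 of the probes are printed to show what was hybridised; each is 60 bases long and given 5′ to 3′. The first and the third are the main probes of their genes, and the second is the other probe of Peg3.
Snrpn, A_52_P354390: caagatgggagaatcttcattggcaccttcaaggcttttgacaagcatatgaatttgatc
Peg3, A_55_P2163319: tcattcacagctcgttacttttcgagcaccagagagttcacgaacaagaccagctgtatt
Sgce, A_55_P1958160: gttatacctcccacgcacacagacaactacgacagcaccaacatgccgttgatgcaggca
Their GC content was 40.0%, 45.0% and 53.3%. Each probe binds a transcript of its gene whichever parental copy it came from.

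In the following, a level is the log2 intensity of a probe minus the 75th percentile of its array, and a difference is between group means of such levels. Each gene is given by its main probe, which is its tested probe of highest mean level. A gene was called where the limma test, adjusted by Benjamini-Hochberg over 27126 probes, gave at most 0.05 and the difference was at least 2-fold, a log2 difference of 1. Levels of different genes are not set against each other, because probes differ in their binding. The plot of levels by array shows all 10 genes.

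**Figure D1:**
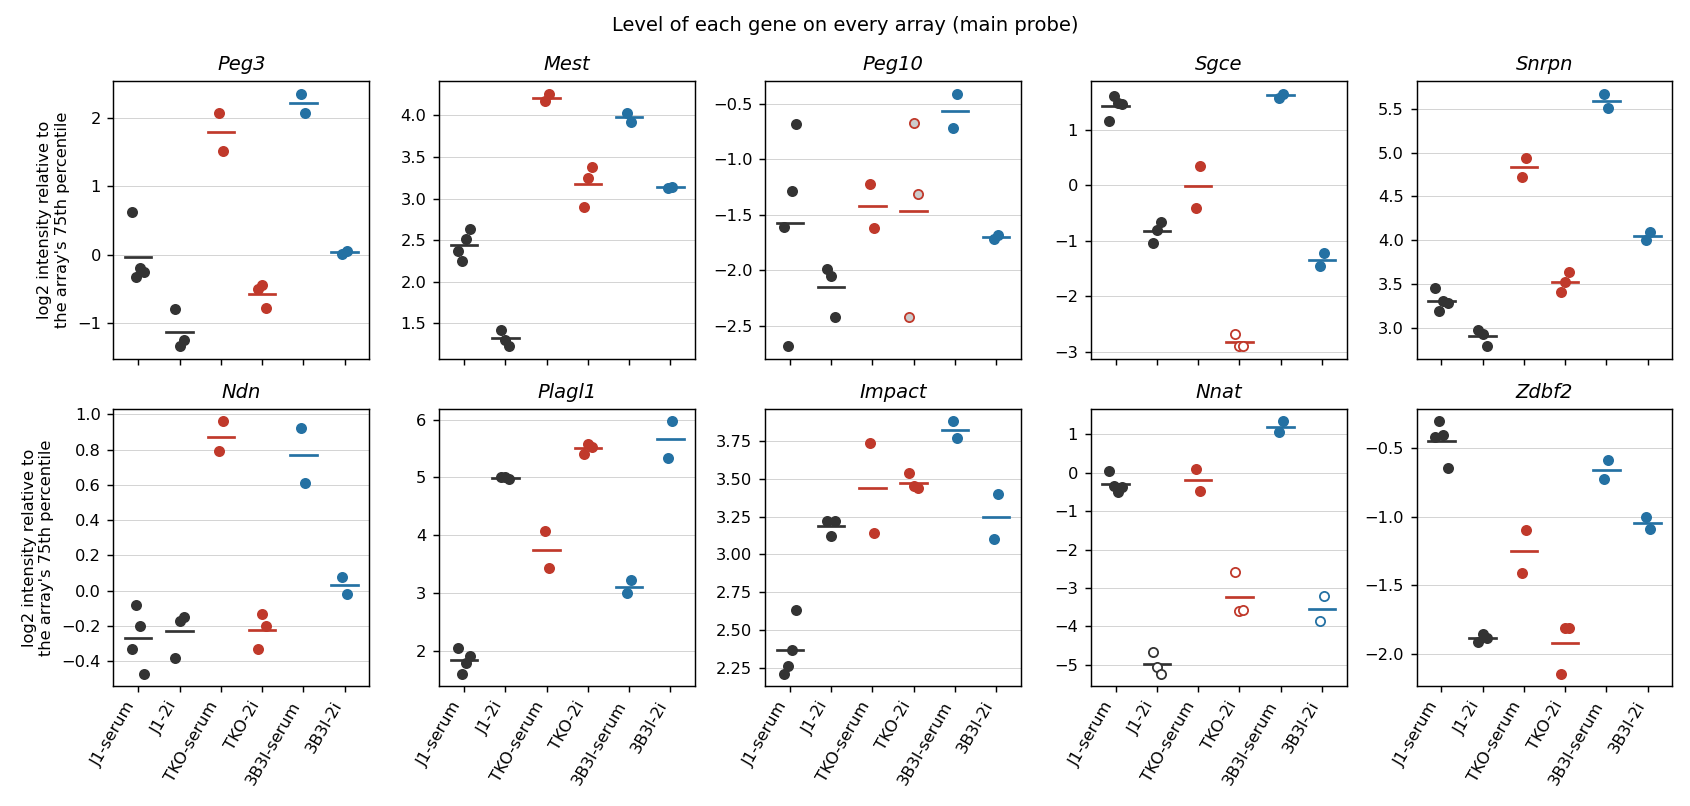
Level of the main probe of each of the 10 genes on every array (y, log2 intensity relative to the array's 75th percentile, with its own scale in each panel) in the 6 groups (x); points are arrays and bars are group means. Filled points belong to groups well above background on all arrays, grey points to a group well above background on some, and open points to groups well above background on none; Peg3, Mest, Snrpn, Ndn, Plagl1 and Impact were higher on both TKO-serum and both 3B3l-serum arrays than on any J1-serum array, while Plagl1 was higher on every 2i array than on any serum array.

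In serum, 6 of the 10 genes were called higher in TKO than in J1 cells and 1 was called lower, against 7.76% and 8.74% of the 13883 genes compared. The median difference of the 10 genes was 1.11 and that of all genes 0.01. By adjusted p alone, with no fold limit, 6 were higher and 2 lower, against 22.7% and 23.1%. In 3B3l cells 7 of the 10 were called higher and 0 lower, against 9.86% and 9.43% of 13885 genes, with a median difference of 1.36 for the 10 genes and 0.13 for all. By adjusted p alone the counts were also 7 and 0, against 30.9% and 21.7%, and by limma 0 of the 10 were lower at an unadjusted p under 0.05. Both comparisons used the same 4 J1-serum arrays, so they are not independent.

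Peg3 encodes a zinc-finger DNA-binding protein of maternal behaviour and growth. Its level was 0.62, -0.33, -0.20 and -0.25 on the J1-serum arrays, 2.08 and 1.52 on the TKO-serum arrays and 2.36 and 2.08 on the 3B3l-serum arrays. Both other lines lay above every J1-serum array, although J1-serum replicate 1 was well above the other 3. The difference was 1.84 (SE 0.26, 3.57-fold, adjusted p = 1.1e-04) for TKO and 2.26 (SE 0.26, 4.77-fold, adjusted p = 1.6e-05) for 3B3l by limma. Against J1-serum replicate 1 alone, which shared the slide of the 3B3l arrays, the 3B3l difference was 1.60. The second Peg3 probe, printed above, was well above background only on the 4 arrays of TKO-serum and 3B3l-serum, at least 2.56-fold and at least 2.82-fold above J1-serum. It passed the background filter only through the groups where it was high, so these values are a description and no further evidence of a difference. Such a bound sets the group that was not well above background at the detection limit of its arrays, or at its own signal where that was higher.

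Mest encodes a hydrolase-fold protein of mesodermal tissues. Its level was 2.37, 2.25, 2.51 and 2.63 in J1-serum, 4.17 and 4.26 in TKO-serum and 4.03 and 3.92 in 3B3l-serum. The 3 groups were compact, and J1 was below both other lines by 1.77 (SE 0.14, 3.42-fold, adjusted p = 7.5e-07) against TKO and by 1.54 (SE 0.14, 2.9-fold, adjusted p = 2.1e-06) against 3B3l. All 3 Mest probes were called higher in both lines, with differences of 1.66 to 1.95 for TKO and 1.23 to 1.54 for 3B3l.

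Snrpn encodes SmN, a core protein of the spliceosome, and its promoter region holds the imprinting centre of the Prader-Willi domain. Its level was 3.46, 3.20, 3.31 and 3.29 in J1-serum, 4.72 and 4.94 in TKO-serum and 5.67 and 5.51 in 3B3l-serum. The groups did not overlap, and their order was J1, TKO, 3B3l. The difference from J1 was 1.52 (SE 0.11, 2.87-fold, adjusted p = 4.3e-07) for TKO and 2.27 (SE 0.11, 4.83-fold, adjusted p = 1.5e-08) for 3B3l. The step from TKO to 3B3l, 0.75 (95% interval 0.48 to 1.03, adjusted p = 9.7e-04), passed the p threshold but not the fold limit. The second Snrpn probe, A_55_P1998194, well above background on all 16 arrays, was called higher in both lines, by 1.61 and 2.00, and its step from TKO to 3B3l was 0.38 (95% interval 0.04 to 0.72, adjusted p = 0.085). The other Snrpn probe, A_55_P1990116, was well above background only in TKO-serum and 3B3l-serum, at least 2.72-fold and at least 3.97-fold above J1-serum, and likewise passed the filter only through those groups.

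Ndn, in the same domain, encodes necdin, a growth-suppressing protein of the MAGE family. Its level was -0.33, -0.08, -0.20 and -0.47 in J1-serum, 0.79 and 0.96 in TKO-serum and 0.92 and 0.61 in 3B3l-serum. TKO was higher by 1.14 (SE 0.13, 2.21-fold, adjusted p = 2.0e-05) and 3B3l by 1.03 (SE 0.13, 2.05-fold, adjusted p = 3.7e-05). The 3B3l value stood just over the fold limit and fell below it without J1-serum replicate 4, at 0.97, and without 3B3l-serum replicate 1, at 0.88.

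Plagl1 encodes Zac1, a zinc-finger transcription factor that restrains growth. Its level was 2.04, 1.60, 1.79 and 1.90 in J1-serum, 4.07 and 3.43 in TKO-serum and 2.99 and 3.22 in 3B3l-serum. J1 was the lowest of the 3 lines on every array. The difference was 1.92 (SE 0.20, 3.78-fold, adjusted p = 7.3e-06) for TKO and 1.27 (SE 0.20, 2.42-fold, adjusted p = 1.7e-04) for 3B3l. Within the slide of the 3B3l arrays, against 1 J1-serum array, the 3B3l difference was 1.07 and was not called. The second probe, A_52_P532456, was called higher in both lines, by 1.90 and 1.35, while the probe A_55_P2153251 differed by 0.20 (95% interval -0.57 to 0.97) and 0.11 (95% interval -0.67 to 0.88).

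Impact encodes an inhibitor of the translational kinase Gcn2. Its level was 2.21, 2.26, 2.37 and 2.63 in J1-serum, 3.74 and 3.14 in TKO-serum and 3.88 and 3.77 in 3B3l-serum. The TKO arrays were far apart, and both lay above J1. TKO was higher by 1.07 (SE 0.16, 2.10-fold, adjusted p = 1.8e-04), a value that fell to 0.77 and was not called without TKO-serum replicate 1, and was 0.94 within the slide that held 2 arrays of each group. 3B3l was higher by 1.46 (SE 0.16, 2.74-fold, adjusted p = 1.2e-05), and by 1.62 within its slide. The second probe, A_66_P108138, gave 1.07 (adjusted p = 0.026) for TKO, which was called, and 0.95 (adjusted p = 0.038) for 3B3l, which was not.

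Sgce went the other way in TKO cells. It encodes epsilon-sarcoglycan, a membrane protein, and its promoter faces that of Peg10 with a shared imprinted region. Its level was 1.15, 1.61, 1.48 and 1.46 in J1-serum, -0.40 and 0.35 in TKO-serum and 1.58 and 1.65 in 3B3l-serum. Both TKO arrays lay below all the others, while 3B3l overlapped J1. The difference from J1 was -1.45 (SE 0.19, 2.73-fold, adjusted p = 6.5e-05) for TKO and 0.19 (95% interval -0.23 to 0.61, adjusted p = 0.44) for 3B3l, an interval that leaves out a 2-fold change in either direction. 3B3l was 1.64 higher than TKO (SE 0.22, 3.12-fold, adjusted p = 1.9e-04).

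Peg10, the neighbour of Sgce, is a gene of retrotransposon origin needed in the placenta, and its 2 probes gave different pictures. On the main probe, A_55_P2029763, the level was -1.61, -2.68, -1.29 and -0.68 in J1-serum, -1.22 and -1.62 in TKO-serum and -0.72 and -0.41 in 3B3l-serum. The J1 arrays alone covered a wider range than TKO-serum and 3B3l-serum together and overlapped both, while TKO and 3B3l did not overlap, and no comparison of this probe was called over all arrays. Within the slide of the 3B3l arrays the 3B3l-serum mean was 1.04 above the 1 J1-serum array there, a comparison with no spread of its own for J1, whose 4 arrays ran from -2.68 to -0.68. Without J1-serum replicate 4 the difference of 3B3l from J1 was 1.29 and was called. On the other probe, A_52_P377723, the level was between -4.09 and -3.34 in J1-serum without being well above background, -1.80 and -2.59 in TKO-serum and -0.79 and -0.39 in 3B3l-serum. On it TKO exceeded J1 at least 1.86-fold and 3B3l exceeded J1 at least 5.64-fold, values given as a description because the probe passed the filter only through TKO-serum and 3B3l-serum. On this probe 3B3l was 1.60 higher than TKO (SE 0.31, 3.03-fold, adjusted p = 0.0022).

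Nnat encodes neuronatin, a small membrane proteolipid, and lies inside an intron of Blcap. Its level was 0.04, -0.33, -0.51 and -0.37 in J1-serum, 0.10 and -0.47 in TKO-serum and 1.06 and 1.34 in 3B3l-serum. TKO overlapped J1, with 1 array above every J1 array and a difference of 0.10 (95% interval -0.56 to 0.77, adjusted p = 0.84), and both 3B3l arrays lay above. 3B3l was 1.49 higher than J1 (SE 0.30, 2.81-fold, adjusted p = 0.0015) and 1.39 higher than TKO (SE 0.35, 2.61-fold, adjusted p = 0.012). Within the slide of the 3B3l arrays the difference from J1 was 1.16 and was not called, and with slide as a block the difference from TKO was 0.83 and was not called.

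Zdbf2 encodes a DBF-type zinc-finger protein, and its expression depends on methylation upstream of the gene on the paternal copy. Its level was -0.42, -0.31, -0.41 and -0.65 in J1-serum, -1.41 and -1.10 in TKO-serum and -0.73 and -0.59 in 3B3l-serum. TKO was below every J1 array by a mean of 0.80 on the log2 scale (95% interval of the difference -1.09 to -0.52, adjusted p = 3.1e-04), which passed the p threshold without reaching 2-fold. For 3B3l the difference was -0.21 (95% interval -0.49 to 0.07, adjusted p = 0.21).

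**Figure D2:**
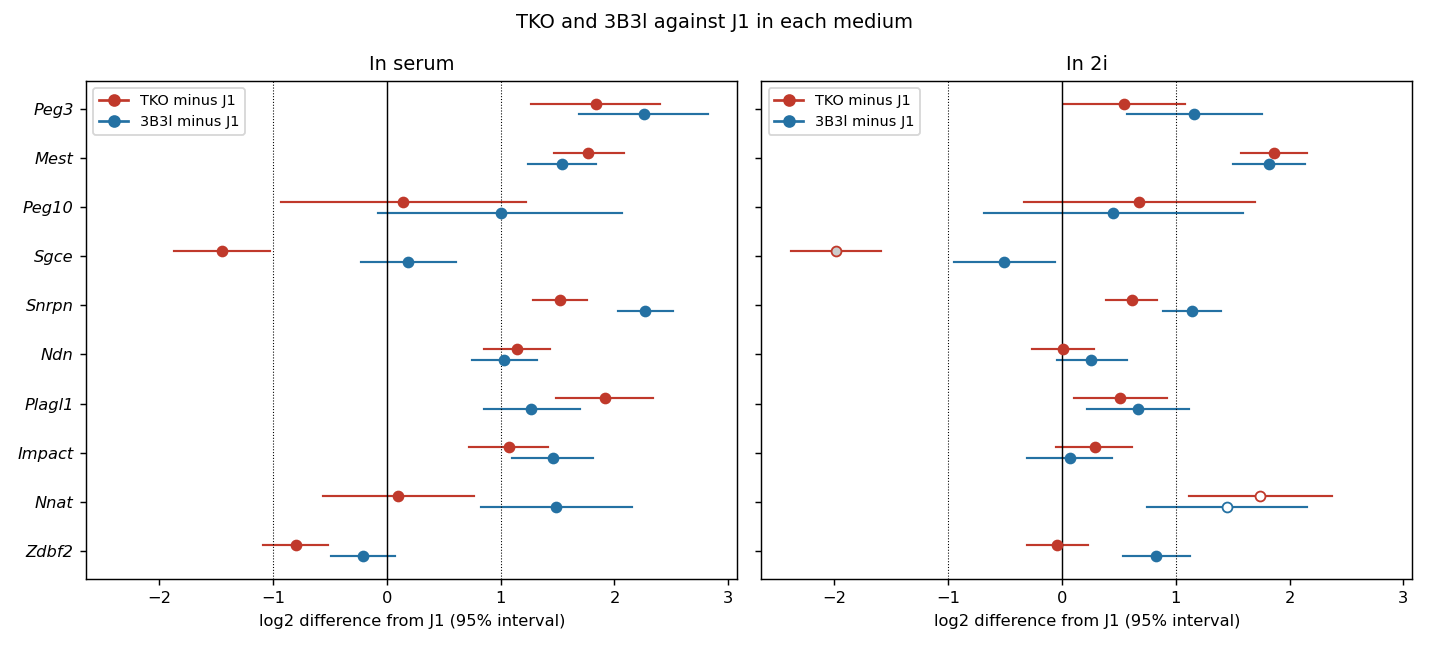
Difference of TKO (red) and 3B3l (blue) from J1 for each gene (y) in serum (left) and 2i (right), on the log2 scale (x) with the 95% interval as a bar; dotted lines mark a 2-fold difference. Grey points have 1 group not well above background on any array and open points have both; in serum the differences of Peg3, Mest, Snrpn, Ndn, Plagl1 and Impact lie between 1.03 and 2.27 in both lines, while in 2i the differences of Ndn and Impact lie between 0.01 and 0.29.

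In 2i, where all 3 lines were feeder-free, fewer of the 10 genes differed between lines. TKO was called higher than J1 for 2 genes and lower for 1, against 3.8% and 3.55% of 13894 genes, and the median difference was 0.53 for the 10 genes and 0.05 for all. With no fold limit the counts were 3 and 1, against 13% and 13.4%. 3B3l was called higher for 4 and lower for 0, against 7.82% and 6.56% of 13894 genes, with a median of 0.75 against 0.09; at an unadjusted limma p under 0.05 the count lower was 1, Sgce. With no fold limit 6 were higher and 0 lower, against 25.3% and 18.4%. In both lines 1 of the genes called higher was Nnat, whose main probe was not well above background on any of the 8 arrays in 2i, so its difference gives no fold. Its second probe, well above background on 1 of the 8, was called in neither line, at -0.59 (95% interval -1.84 to 0.65) in TKO and 0.82 (95% interval -0.58 to 2.21) in 3B3l. With slide as a block, the 3B3l count fell from 4 to 1, Mest. That block ties 3B3l to the other lines only through J1-serum replicate 1, the array that stood apart for Peg3.

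Mest was called higher in both lines in 2i as well. Its level was 1.42, 1.30 and 1.23 in J1-2i, 2.90, 3.25 and 3.38 in TKO-2i and 3.13 and 3.14 in 3B3l-2i. The J1 arrays lay below all others, and TKO and 3B3l overlapped. The difference from J1 was 1.86 (SE 0.13, 3.63-fold, adjusted p = 9.2e-07) for TKO and 1.82 (SE 0.15, 3.53-fold, adjusted p = 2.0e-06) for 3B3l, and 1.91 for 3B3l with slide as a block. The summed level of primitive endoderm markers was 8.49 to 11 in J1-2i, 10.7 to 12.3 in TKO-2i and 4.98 to 5.38 in 3B3l-2i, and of the 14 fibroblast markers tested 2 were higher and 1 lower in TKO-2i than in J1-2i, and 5 higher and 2 lower in 3B3l-2i.

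Peg3, Snrpn, Plagl1, Ndn and Impact lay closer together in 2i. Peg3 was -0.80, -1.34 and -1.26 in J1-2i, -0.51, -0.44 and -0.79 in TKO-2i and 0.01 and 0.05 in 3B3l-2i. The TKO difference of 0.55 (95% interval 0.02 to 1.08, adjusted p = 0.13) was not called, and the 3B3l difference of 1.16 (SE 0.27, adjusted p = 0.0053) was 0.28 and not called with slide as a block. Snrpn was 2.98, 2.94 and 2.80 in J1-2i, 3.41, 3.53 and 3.64 in TKO-2i and 4.0 and 4.10 in 3B3l-2i. The Snrpn groups kept the order J1, TKO, 3B3l without overlap, with differences from J1 of 0.62 (95% interval 0.39 to 0.84, adjusted p = 0.0010), which did not reach 2-fold, and 1.14 (SE 0.12, adjusted p = 1.3e-05), which was 0.95 with slide as a block.

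For Plagl1 the differences from J1 in 2i were 0.51 (95% interval 0.11 to 0.92) for TKO and 0.67 (95% interval 0.22 to 1.12) for 3B3l, neither called. The 3B3l value takes an array on which the main probe was saturated, and was 0.35 without it, while the second probe gave 0.48 and 0.88, neither called. The probe A_55_P2153251 was called higher in 2i in both lines, by 1.51 (adjusted p = 0.0063) in TKO and 1.26 (adjusted p = 0.018) in 3B3l, where it overlapped J1-2i replicate 2. Ndn differed by 0.01 (95% interval -0.26 to 0.28) in TKO and 0.26 (95% interval -0.04 to 0.57) in 3B3l, and both intervals leave out a 2-fold difference. The same held for Impact, at 0.29 (95% interval -0.05 to 0.62) and 0.07 (95% interval -0.31 to 0.44).

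Sgce was again lowest in TKO. Its level was -1.04, -0.80 and -0.66 in J1-2i, -1.46 and -1.21 in 3B3l-2i, and -2.67, -2.89 and -2.89 in TKO-2i, where it was not well above background on any array. The TKO-2i level was at least 3.95-fold below that of J1-2i (adjusted p = 8.3e-06) and at least 2.79-fold below that of 3B3l-2i (adjusted p = 1.9e-04). Zdbf2 in 3B3l-2i, at -1.0 and -1.09, lay above J1-2i by 0.83 (95% interval 0.54 to 1.13, adjusted p = 5.1e-04), short of 2-fold, while TKO differed from J1 by -0.04 (95% interval -0.31 to 0.23).

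Between 3B3l and TKO directly, 2 of the 10 genes were called higher in 3B3l in serum, Sgce and Nnat, and 1 in 2i, Sgce, against 5.2% of 13868 and 4.67% of 13889 genes. Without the fold limit the counts were 4 in serum and 3 in 2i, against 20.5% and 18.7%. The count called lower was 0 in both media, against 5.49% and 5.35%, was 0 by adjusted p alone, against 12.2% and 14.1%, and at an unadjusted limma p under 0.05 was 1 in serum, Plagl1, and 0 in 2i. TKO and 3B3l arrays shared no slide. With slide as a block Sgce was 1.96 higher in 3B3l in serum and 1.84 in 2i, and after normexp background correction the 2i difference was 0.96 and not called.

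**Figure D3:**
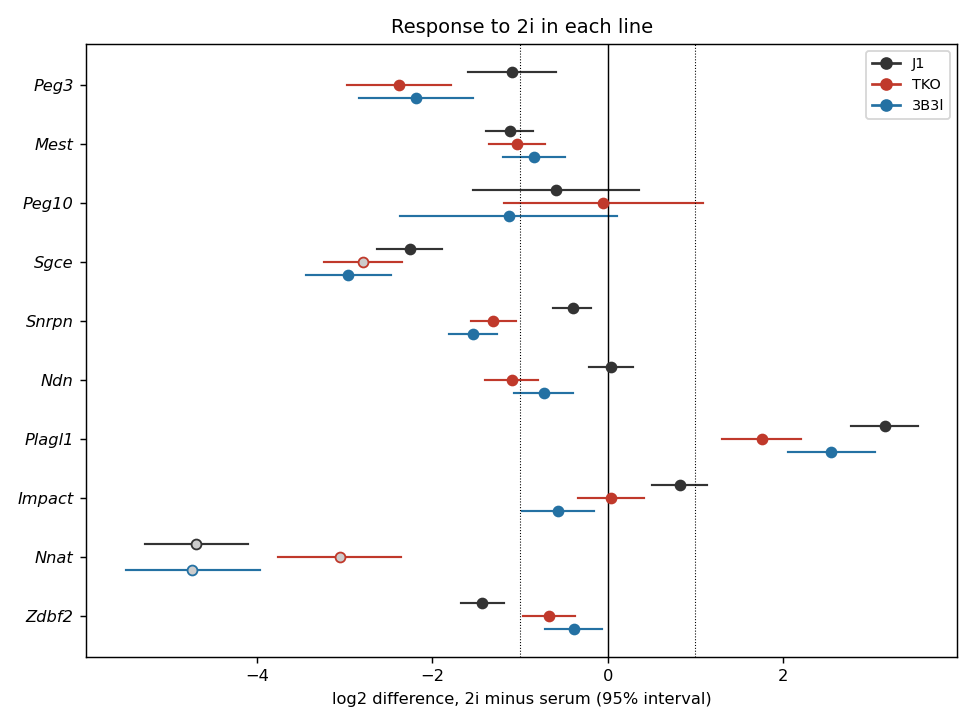
Difference between 2i and serum (x, log2 scale, with the 95% interval as a bar) for each gene (y) in J1 (black), TKO (red) and 3B3l (blue); dotted lines mark a 2-fold change and grey points have 2i groups not well above background on any array. Plagl1 lies to the right of 0 in the 3 lines, at 3.16, 1.76 and 2.55, while Sgce and Nnat lie to the left at -2.26 or below.

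On transfer from serum to 2i, more of these genes fell than rose in each line. In J1 cells 5 of the 10 fell and 1 rose, against 12.6% and 10.1% of 13902 genes, and the median change was -0.84 for the 10 genes and 0.05 for all. In TKO cells 6 fell and 1 rose, against 9.08% and 6.72% of 13877 genes, with a median of -1.06 against 0.07. In 3B3l cells 4 fell and 1 rose, against 7.95% and 5.62% of 13884 genes, with a median of -0.99 against 0. With arrays scaled to their median, 3 of the 10 fell in J1, since Peg3 and Mest were then at -0.93 and -0.96. By adjusted p alone 6 fell and 2 rose in J1 (25% and 30.1%), 7 fell and 1 rose in TKO (17.9% and 20.8%), and 7 fell and 1 rose in 3B3l (15.3% and 15.9%). The gene that rose past the fold limit was Plagl1 in each line.

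The main probe of Nnat was well above background on all 8 serum arrays and on none of the 8 arrays in 2i. It passed the background filter only through the serum groups, where it was high, so its part in the counts of falls is a description. In 2i it was -4.67, -5.06 and -5.23 in J1, -2.57, -3.59 and -3.58 in TKO and -3.87 and -3.21 in 3B3l, and in each line every 2i array lay below every serum array. J1-2i was at least 8.72-fold below J1-serum, TKO-2i at least 7.54-fold below TKO-serum and 3B3l-2i at least 11.5-fold below 3B3l-serum. A dimmer second probe, A_55_P1980426, passed the filter only through TKO-serum and 3B3l-serum; as a description, it was at least 2.61-fold lower in 2i in TKO, while J1, at least 1.95-fold lower, and 3B3l, with a change of -1.99 and 1 of its 2 arrays in 2i well above background, were not called.

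Sgce fell in each line. The change was -2.26 (SE 0.17, 4.79-fold, adjusted p = 2.3e-07) in J1, at least 6.93-fold in TKO (adjusted p = 3.7e-07) and -2.96 (SE 0.22, 7.77-fold, adjusted p = 7.4e-07) in 3B3l. Every 2i array of a line was below every serum array of that line. The falls in TKO and 3B3l differed from that in J1 by -0.53 (95% interval -1.11 to 0.04) and -0.70 (95% interval -1.31 to -0.09), neither called. The TKO value rests on TKO-2i levels that were not well above background, so it does not compare 2 measured falls.

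Peg3 fell by 1.09 on the log2 scale in J1 (SE 0.23, 2.13-fold, adjusted p = 0.0015), by 2.38 in TKO (SE 0.27, 5.21-fold, adjusted p = 2.1e-05) and by 2.19 in 3B3l (SE 0.30, 4.55-fold, adjusted p = 1.3e-04). The J1 value was not called without J1-serum replicate 1, at -0.87, or without J1-2i replicate 2, at -0.99, and was -0.80 and not called within the slide that held 2 arrays of each group. Mest fell by 1.12 in J1 (SE 0.12, 2.18-fold, adjusted p = 7.2e-06) and by 1.04 in TKO (SE 0.15, 2.05-fold, adjusted p = 1.3e-04). In 3B3l the Mest change of -0.84 (95% interval -1.19 to -0.49, adjusted p = 0.0017) passed the p threshold but not the fold limit, and the responses of Mest in TKO and 3B3l differed from that in J1 by 0.09 (95% interval -0.33 to 0.50) and 0.28 (95% interval -0.16 to 0.72). Of the other Mest probes, A_55_P2151868 was called lower in each line, at -1.09 (adjusted p = 0.0065) in 3B3l, and A_51_P124535 was at -0.94 in TKO and -0.96 in 3B3l, neither called. The TKO value of Mest on the main probe stood at the fold limit, and was not called when slide was a block (-0.95), when TKO-serum replicate 2 was left out (-0.99) or when replicate 1 of TKO-2i was left out (-0.90).

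Snrpn and Ndn, of the same domain, changed by less than 2-fold in J1. Snrpn changed by -0.40 in J1 (95% interval -0.62 to -0.19, adjusted p = 0.0041), short of 2-fold, and fell by 1.31 in TKO (SE 0.12, 2.47-fold, adjusted p = 2.3e-06) and by 1.54 in 3B3l (SE 0.13, 2.90-fold, adjusted p = 1.8e-06). The response in 3B3l differed from that in J1 by -1.13 (SE 0.16, adjusted p = 2.1e-04) and that in TKO by -0.90 (SE 0.15, adjusted p = 8.3e-04), the latter short of the fold limit. On the second Snrpn probe these differences were -0.65 and -0.96, neither past the fold limit. Ndn was -0.38, -0.17 and -0.15 in J1-2i, with a change of 0.04 (95% interval -0.21 to 0.29), was -0.33, -0.13 and -0.20 in TKO-2i, and was 0.08 and -0.02 in 3B3l-2i. Ndn fell by 1.09 in TKO (SE 0.14, 2.13-fold, adjusted p = 5.3e-05), a response that differed from that of J1 by -1.13 (SE 0.18, adjusted p = 5.7e-04). In 3B3l the Ndn change was -0.73 (95% interval -1.07 to -0.40, adjusted p = 0.0032), and its difference from the J1 response, -0.77 (SE 0.19, adjusted p = 0.0097), did not reach 2-fold.

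Plagl1 rose from 1.60 to 2.04 in J1-serum to 5.01, 5.0 and 4.97 in J1-2i. It reached 5.41, 5.58 and 5.53 in TKO-2i and 5.34 and 5.97 in 3B3l-2i, where the higher array was saturated for this probe. All 8 arrays in 2i lay above all 8 in serum. The rise was 3.16 in J1 (SE 0.17, 8.93-fold, adjusted p = 1.2e-08), 1.76 in TKO (SE 0.21, 3.38-fold, adjusted p = 2.6e-05) and 2.55 in 3B3l (SE 0.23, adjusted p = 3.2e-06), or 2.24 without the saturated array. The rise in TKO differed from that in J1 by -1.40 (SE 0.27, adjusted p = 0.0021). In 3B3l the difference from J1 of -0.61 (95% interval -1.23 to 0.01, adjusted p = 0.15) was not called, and it was -0.92 without the saturated array. The second probe, A_52_P532456, which was saturated on no array, rose by 3.23, 1.82 and 2.76. Another probe, A_55_P2153251, did not: it fell in J1 by 1.14 (SE 0.31, adjusted p = 0.0091), with J1-2i replicate 2 at -0.95 inside the J1-serum range and the other 2 J1-2i arrays at -2.49 and -2.65, and it changed by 0.17 and 0.01 in TKO and 3B3l. The fourth probe of Plagl1 and the second of Zdbf2 did not pass the filter on background and were not tested.

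Impact was not called in any line, with changes of 0.82 in J1 (95% interval 0.51 to 1.13, adjusted p = 3.9e-04), 0.04 in TKO (95% interval -0.34 to 0.41) and -0.57 in 3B3l (95% interval -0.98 to -0.16, adjusted p = 0.042). The response in 3B3l differed from that in J1 by -1.39 (SE 0.24, adjusted p = 7.9e-04). The dimmer second probe gave 0.82, 0.29 and 0.40, and its 3B3l response was not called different from that in J1, at -0.42 (95% interval -1.51 to 0.67). Zdbf2 fell in J1 by 1.43 (SE 0.11, 2.70-fold, adjusted p = 3.9e-07), from -0.31 or less in serum to -1.91, -1.85 and -1.88. Its changes in TKO, -0.67 (95% interval -0.97 to -0.37), and 3B3l, -0.39 (95% interval -0.72 to -0.06), did not reach 2-fold, and the 3B3l response differed from that of J1 by 1.04 (SE 0.19, adjusted p = 0.0013), or by 0.60 and not called after normexp correction.

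The main probe of Peg10 gave no called response over all arrays, with changes of -0.59 in J1, -0.05 in TKO and -1.13 in 3B3l. Within a slide some were called: -1.22 in J1 and -1.13 in 3B3l, and, on the slide with 2 arrays of each J1 and TKO group, TKO above J1 by 1.21 in 2i and by 1.65 in the difference of responses (0.68 and 0.54 over all arrays). On the remaining slide, with 1 array a group, the J1 change was 0.63 and the TKO difference in 2i -0.37. The second probe was -4.54, -4.70 and -5.00 in TKO-2i and -4.41 and -4.55 in 3B3l-2i, not well above background. The 2i level was at least 2.23-fold below serum in TKO and at least 3.31-fold below it in 3B3l, again on a probe that passed the filter only through those serum groups. In J1 this probe was not well above background in either medium.

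Over the difference of responses, 3 of the 10 genes were called lower and 1 higher in TKO against J1 (7.51% and 7.76% of 13874 genes), and 3 lower and 1 higher in 3B3l against J1 (8.59% and 8.63% of 13877 genes). By adjusted p alone 5 were lower and 2 higher in TKO (14.9% and 15.4%), and 4 lower and 1 higher in 3B3l (17.1% and 14.8%). The J1 arrays entered both, and the J1-serum group was the one with feeder cells and with the highest summed level of primitive endoderm markers. In that same difference of responses all 10 primitive endoderm markers were called higher, in TKO and in 3B3l.

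**Figure D4:**
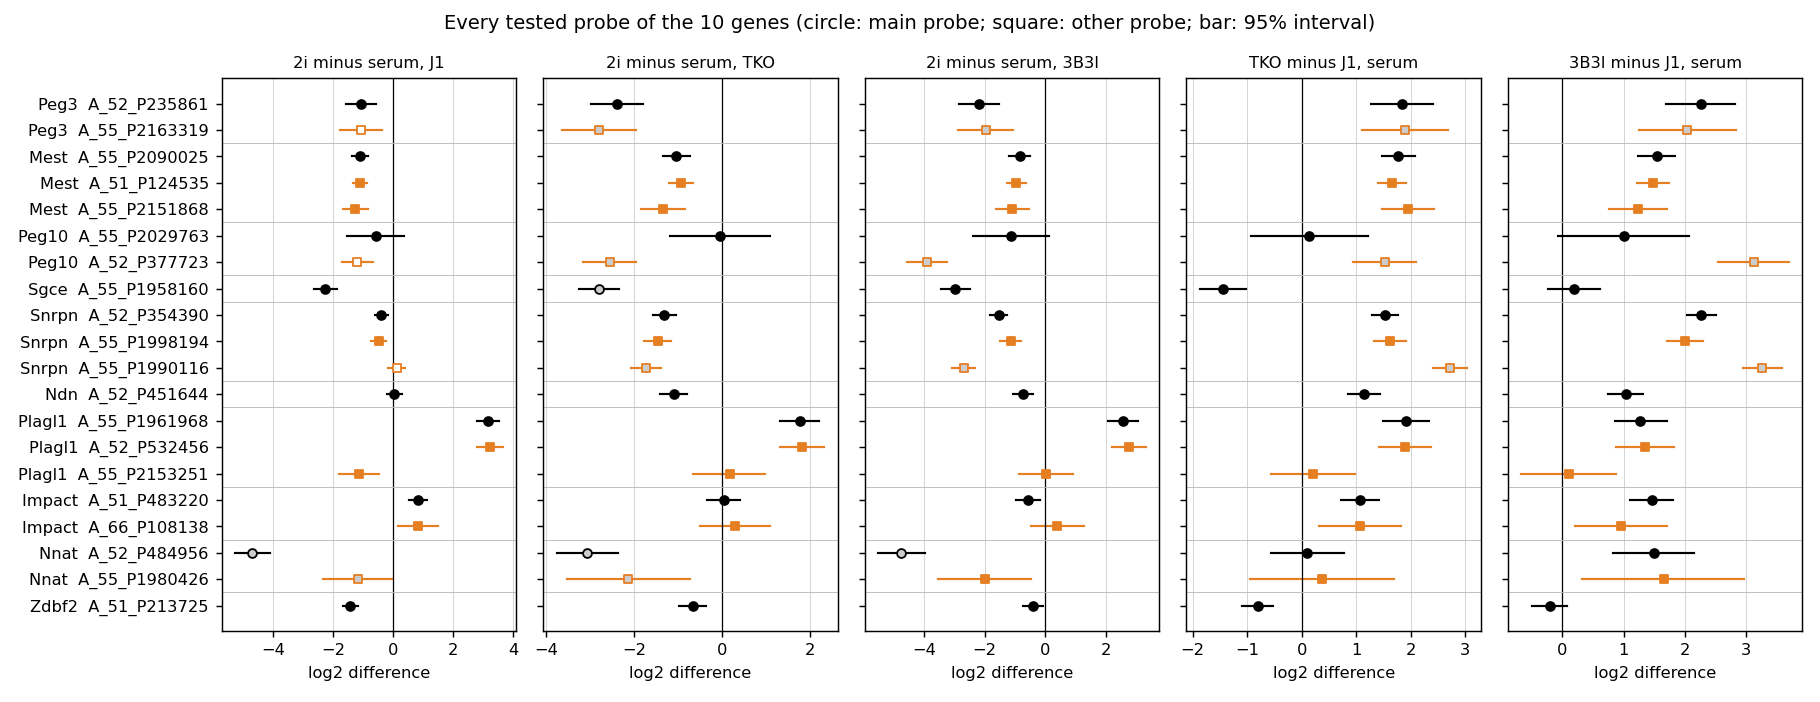
Log2 difference (x, with the 95% interval as a bar) of each of the 20 tested probes (y, gene and probe name) in 5 comparisons, 1 a panel with its own scale; circles are main probes, squares are other probes, grey fill marks 1 group and white fill both groups not well above background on any array. The probes of Mest lie together. In some panels the second probes of Peg10, Nnat and Impact and the third tested probes of Plagl1 and Snrpn lie apart from the main probe.

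Other genes of the same imprinted domains were taken from a list of 27, of which 16 were tested. In serum 5 of the 16 were called higher and 1 lower in TKO than in J1 (7.76% and 8.74% of all genes), and 5 were called higher in 3B3l (9.86%). Magel2, Calcr, Gpr1 and Atp10a, 4 of the 5 in TKO, passed the background filter only through TKO-serum, 3B3l-serum or both, as did 3 of the 5 in 3B3l, so these counts and the values of these genes are a description. Magel2, a neighbour of Ndn, differed from J1 by 1.94 in TKO and 1.95 in 3B3l. Calcr, the calcitonin receptor gene near Peg10, was at least 1.26-fold higher in TKO and at least 2.46-fold higher in 3B3l. Pon2 and Pon3, paraoxonase genes near Peg10, did not go together: Pon3 was 1.75 lower in TKO (log2 difference -1.75, adjusted p = 8.0e-05), and Pon2 was 1.80 higher in 3B3l (adjusted p = 6.5e-06). Cep41, close to Mest, was 1.26 higher in TKO (adjusted p = 1.2e-05), and Peg12, of the Snrpn domain, was 1.03 higher in 3B3l (adjusted p = 2.9e-04). Gpr1, the neighbour of Zdbf2, was at least 1.92-fold higher in TKO and not well above background in 3B3l-serum or J1-serum, and Atp10a, of the Snrpn domain, differed by 1.41 in TKO.

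In 2i, 3 of the 16 domain genes were lower in TKO than in J1, Ppp1r9a (log2 difference -2.14), Pon2 (-1.60) and Pon3 (-2.50), all neighbours of Sgce and Peg10, against 3.55% of all genes. In 3B3l 2 were called higher than in J1 in 2i and 1 lower (7.82% and 6.56% of all genes), namely Peg12 (1.68), Magel2, which was not well above background in either group, and Ppp1r9a (-1.14). On transfer to 2i the counts were 1 higher and 2 lower in J1 (10.1% and 12.6% of all genes), 1 and 6 in TKO (6.72% and 9.08%), and 2 and 6 in 3B3l (5.62% and 7.95%). Magel2, Calcr, Gpr1 and Atp10a made 4 of the 6 falls in TKO and in 3B3l, and Magel2 and Atp10a the 2 in J1. These 4 genes passed the background filter only through TKO-serum, 3B3l-serum or both, where they were high. The counts of falls are therefore a description. In 3B3l, Gpr1 and Atp10a were not well above background on any array of either medium. Peg12 rose in TKO by 1.12 and in 3B3l by 1.44, while Magel2 differed by -2.46 in TKO and was at least 2.48-fold lower in J1 and at least 4.31-fold lower in 3B3l.

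Of 15 tested paternally expressed genes, 4 were higher and 1 lower in TKO than in J1 in serum, and 4 were higher in 3B3l, against 7.76%, 8.74% and 9.86% of all genes. In each line 3 of the 4 higher calls, of Kcnq1ot1 and Peg13 and of Nap1l5 in TKO or Igf2 in 3B3l, were of genes that passed the filter through no J1 group, so these counts are a description. Peg13 was not well above background on any array of 3B3l-serum or J1-serum. Sfmbt2, a Polycomb-family gene, was 1.14 higher in TKO and 2.88 higher in 3B3l. Of 18 tested maternally expressed genes, 2 were higher and 3 lower in TKO, and 2 higher and 3 lower in 3B3l, against 7.76% and 8.74% and against 9.86% and 9.43% of all genes. The medians were 0.17 and 0.28 for the paternally expressed genes and -0.31 and 0.11 for the maternally expressed ones. Among 12 factors that maintain imprints or methylation, 3 were higher and 1 lower in 3B3l-serum than in J1-serum, against 9.86% and 9.43% of all genes. Zfp57 was 1.71 higher (adjusted p = 1.7e-04), Trim28 1.33 higher (adjusted p = 3.5e-05) and Setdb1 1.12 higher (adjusted p = 5.1e-06). Arid4b was lower (log2 difference -1.08, adjusted p = 0.012). In TKO-serum 1 of these 12 was called, Dnmt1, which was lower by 3.48 on the log2 scale, against 8.74% of all genes. In 2i 1 was called higher in 3B3l than in J1 and 1 lower, against 7.82% and 6.56%. The lower one was Dppa3, with a mean of 2.08 in 3B3l-serum and -4.09 in 3B3l-2i, where no array was well above background. Its mean was 1.43 in J1-2i and 1.65 in TKO-2i.

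Over the 16 arrays, the genes whose levels followed these most closely are given for 9 of the 10. Among them 1, Calcr, was from the domain list, as a neighbour of Peg10 and not of Snrpn. Among 13618 genes, the highest Pearson correlation with Sgce was that of Hebp2 (0.991), with Plagl1 that of Fzd10 (0.984), with Nnat that of Ddr1 (0.975), with Zdbf2 that of Foxj1 (0.974) and with Snrpn that of Calcr (0.970). For Peg3 it was Psors1c2 (0.968), for Ndn Zic5 (0.962), for Impact Pus7 (0.958) and for Peg10 Gimap4 (0.840). Calcr was well above background on 1 of 2 TKO-serum arrays, on both 3B3l-serum arrays and on no other. It passed the filter only through 3B3l-serum, where Snrpn was also highest, so its correlation rests mostly on background signal. Arrays of a group share their cell line and medium, so these values describe mostly 6 groups and carry no test.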

How the data were processed

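Total RNA of 16 mES cell samples was labelled with Cy3 and hybridised to Agilent 8x60K mouse arrays. Per the submitters' processing notes, the authors read the spots with Agilent Feature Extraction 11.5.1.1, and the deposited intensity is its processed, background-subtracted signal. The authors also deposited a table of 30170 probes in log2 units, whose values are those of normalised arrays. For 13 of its 16 columns the closest scanner file was that of another replicate of the same group, and for 0 that of another group, so it served only as an alternative.

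Here log2 intensity was reduced by each array's 75th percentile over non-control spots. Outlier-flagged spots were left out and the spots of a probe averaged. A probe was well above background on an array where at least 50% of its spots were so flagged. The model had 1 mean per group over all 16 arrays and was fitted with limma 3.58.1 (eBayes) in R 4.3.3, with Benjamini-Hochberg adjustment over 27126 probes, a threshold of 0.05 and a 2-fold limit. All 11 comparisons come from this fit. The code was tested on simulated data.

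The 10 genes, and the lists of domain genes, other imprinted genes, imprint-maintaining factors and cell type markers, were chosen with earlier results of these data known. Genes were named through RefSeq transcripts. The genes named in the text are the 10 genes by their main probe, with their other probes, the tested domain genes, and for each other list up to 4 genes by largest difference, together with the 2 most correlated genes for each, of which the first is printed; that of Mest is not reported here. Alternatives were normexp background correction, quantile and median scaling, the authors' table, other filters and probe rules, slide and replicate blocks and leaving out each array. The median of a gene's probes was not tested itself. It was called where it reached 2-fold and at least 50% of the gene's tested probes had an adjusted p of at most 0.05 on its side. Normexp (offset 50) used the median foreground signal because the scanner files used here give no mean signal; comparisons within a slide were added after seeing the slides. Precision is limited by the 2 to 4 arrays of a group.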

Additional observations from a re-analysis of the deposited data

Results flagged for a closer look

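Peg3 in J1-serum had 1 array far from the other 3: replicate 1 stood at 0.62 and the others between -0.33 and -0.20, a gap of 0.871 of the range of the group. It was 1 of 10 genes so examined, all in J1-serum, and chance gives about 1 in 20 for each gene examined. Replicate 1 was the only J1-serum array on the slide of the 3B3l arrays, so the array and the slide cannot be told apart.

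By the interaction term of the limma fit, 4 of the genes changed differently on transfer to 2i in TKO than in J1. The difference of log2 responses was -1.29 for Peg3 (adjusted p = 0.018), -1.13 for Ndn (adjusted p = 5.7e-04), -1.40 for Plagl1 (adjusted p = 0.0021) and 1.64 for Nnat (adjusted p = 0.012). Without TKO-serum replicate 1 the Peg3 value was -1.01 and not called, and without TKO-serum replicate 2 the Nnat value was 1.35 and not called. The Nnat value rests on 2i levels of its main probe that were not well above background in either line, was 0.34 and not called over the median of its probes and -0.97 and not called on the second probe, and it was 1.12 and not called within the slide that held both lines.

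The response differed between 3B3l and J1 for 4 genes, by -1.09 for Peg3 (adjusted p = 0.049), -1.13 for Snrpn (adjusted p = 2.1e-04), -1.39 for Impact (adjusted p = 7.9e-04) and 1.04 for Zdbf2 (adjusted p = 0.0013). The Peg3 value was not called in 13 of the 16 fits that each left out 1 array, and the 16 values lay between -1.31 and -0.93. The Zdbf2 value was between 0.97 and 1.00 and not called in 3 of them. The Snrpn value was -0.98 and not called by the authors' log2 values, and the Impact value was -0.91 and not called over the median of its probes.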

How the results depend on the processing

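Over the 10 genes and 11 comparisons, 2914 values kept their side of the thresholds under the alternatives, 53 of them, never called, with the other sign, 60 were no longer called, 33 were newly called and 0 changed sign after having been called. The counts that moved by more than 1.5 times were as follows; apart from the filter, which left values for 7 of the 10 genes, the fold limit and the choice of arrays or probes, the cause was not tested. After normexp correction 0 genes were higher in 3B3l than TKO in 2i (1 before) and 0 had a higher response in 3B3l than in J1 (1 before). With median scaling 3 genes fell in J1 in 2i (5 before), and by the authors' log2 values 1 gene had a lower response in 3B3l than in J1 (3 before). With a filter on all 16 arrays 3 genes fell in 2i in J1 and 2 in 3B3l, 0 were lower in TKO than J1 in serum, 1 was higher and 0 lower in 2i, 0 were higher in 3B3l than TKO in either medium, and 0 had a higher response in TKO than in J1. With no fold limit 2 genes rose in J1 and 7 fell in 3B3l, 2 were lower in TKO than J1 in serum, 4 in serum and 3 in 2i were higher in 3B3l than TKO, and 2 higher and 5 lower responses were called in TKO against J1. With slide as a block 1 gene was higher in 3B3l than J1 in 2i (4 before) and 1 in 3B3l than TKO in serum (2 before). With the median of a gene's probes 1 gene was higher in TKO than J1 in 2i (2 before) and 0 had a higher response in TKO than in J1 (1 before). The same rule newly called Peg10, by mixing in its second probe, in 5 comparisons: the responses of TKO (-1.30) and 3B3l (-2.51), 3B3l against J1 (2.06) and TKO (1.23) in serum, and the difference of responses of 3B3l and J1 (-1.62). Under this rule the p threshold had to be passed by 1 of the 2 Peg10 probes. The second probe passed the background filter only through TKO-serum and 3B3l-serum, so these calls are a description.

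Leaving out each array in turn, the count higher in 3B3l than TKO in serum ran from 1 to 2, and the counts of higher responses in TKO and in 3B3l against J1 each ran from 0 to 1. The first fell to 1 without TKO-serum replicate 2, where the Nnat difference was 1.1, or without 3B3l-serum replicate 2, where it was 1.24. The second fell to 0 without TKO-serum replicate 2, where the Nnat difference was 1.35. The third fell to 0 without J1-serum replicate 2, 3B3l-serum replicate 1 or 3B3l-2i replicate 1, where the Zdbf2 difference was between 0.97 and 1.00.

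Replicate numbers were shared between groups, but the correlation of deviations of same-numbered arrays ran from -0.129 to 0.293, so they were not taken as pairs. With a replicate block 6 genes were higher in 3B3l than J1 in serum instead of 7, because Ndn was at 0.99, and no other count changed.

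Other single genes whose call was lost included Snrpn in 3B3l against J1 in 2i, at 0.94 with quantile scaling and by the authors' values, Peg3 there at 0.85 after normexp correction, and Nnat there, at 1.12 without 3B3l-2i replicate 2 and 1.01 with slide as a block. Nnat in TKO against J1 in 2i was 0.58 and not called over the median of its probes. Newly called differences of responses of TKO and J1 were Snrpn, at -1.04 with median scaling and -1.01 without TKO-serum replicate 1, and Impact, at -1.09 without TKO-serum replicate 2.

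The numbers of arrays limit all comparisons, and those of TKO-serum and 3B3l rest on 2 arrays a group. The main probe of Nnat in 2i, Sgce in TKO-2i and the second probe of Peg10 in 2i were not well above background, so the size of these falls is known only as a bound.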
